A study of Mus musculus with 42 samples.

Results

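Of the 24639 autosomal bins of 100 kb of the mouse genome, 486 were called differently for enrichment of a nuclear lamina protein in liver at circadian time (CT) 18 than at CT6, 12 h earlier. These are bins that lay in a lamina-associated domain (LAD) in both mice of 1 time point and in neither mouse of the other. LADs are the deposited intervals of lamin B1 (LMNB1) enrichment, called in each mouse by chromatin immunoprecipitation and sequencing (ChIP-seq), and a bin counts as a LAD bin when 50 kb or more of it is covered. A bin is called gained when it was a LAD bin in both CT18 mice and in neither CT6 mouse, which holds for 391 bins, or 1.59% of all autosomal bins. A bin is called lost in the reverse case, which holds for 95 bins, or 0.386%. The LAD calls of these 4 mice chose the bins, so their counts describe the calls and no test was run on them.

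The livers came from wild-type C57Bl/6 mice on a cycle of 12 h of light and 12 h of dark. All CT6 and CT18 mice had first been fasted for 24 h and were then refed without limit from CT0, when the lights came on. CT6 thus falls in the middle of the light phase and CT18 in the middle of the dark phase, and both carry the fast and the refeeding. The source label calls the mice female, whereas the housing protocol calls them male. Each LMNB1 library is 1 mouse, 2 per time point, and a piece of whole liver mixes hepatocytes with the other cells of the organ. The sample titles name 1 input library per time point. The 2 mice of a time point may thus share an input, in which case their LAD calls are not fully independent. A further 10 LMNB1 libraries were used to follow the bins outside the pair: 2 non-synchronized (NS) mice, which were not fasted, and 2 mice each at CT0, CT12, CT24 and CT30.

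LMNB1 is a filament protein of the nuclear lamina, the meshwork under the inner nuclear membrane, and chromatin that touches it is mostly gene-poor, rich in A and T, late in replication and low in transcription. By the study's account, a part of LMNB1 lies in the nucleoplasm, and its ChIP does not tell that pool from the peripheral one. LADs can span megabases. Many are shared by most cell types, and others, the facultative ones, differ between cell types and often hold clusters of tissue-specific genes that are silent where they lie at the lamina.

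The start regions of 4 genes, picked as examples of both directions, are printed here. Robo2, a receptor that steers growing axons, and Atoh1, a transcription factor of neurons and secretory cells, lay in gained bins. Lor and Ivl, which encode loricrin and involucrin of the cornified skin envelope, lay in lost bins. They were chosen after the LAD calls had been seen and do not stand for all genes of their set, whose counts follow the gene groups. Each line gives the 250 bases before the start from RefSeq on GRCm38.p6, the same assembly as mm10, 5′ to 3′ on the strand of the gene. Capitals mark CG pairs, the target of DNA methylation, and the letters TATAAA, a form of the TATA box. The 4 sequences lie at chr16:74411826-74412075 on the minus strand, chr6:64728875-64729124 on the plus strand, chr3:92083143-92083392 on the minus strand and chr3:92573736-92573985 on the minus strand.
Robo2: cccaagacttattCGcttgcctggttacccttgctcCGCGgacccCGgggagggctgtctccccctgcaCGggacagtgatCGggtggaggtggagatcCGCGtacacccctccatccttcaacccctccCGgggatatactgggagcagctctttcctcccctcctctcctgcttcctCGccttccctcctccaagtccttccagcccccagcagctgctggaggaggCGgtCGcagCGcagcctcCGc
Atoh1: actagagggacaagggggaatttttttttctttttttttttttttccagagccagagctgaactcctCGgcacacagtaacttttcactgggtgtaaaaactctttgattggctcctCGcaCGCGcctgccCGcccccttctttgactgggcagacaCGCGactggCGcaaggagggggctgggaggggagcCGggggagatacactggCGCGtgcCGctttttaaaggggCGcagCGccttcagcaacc
Lor: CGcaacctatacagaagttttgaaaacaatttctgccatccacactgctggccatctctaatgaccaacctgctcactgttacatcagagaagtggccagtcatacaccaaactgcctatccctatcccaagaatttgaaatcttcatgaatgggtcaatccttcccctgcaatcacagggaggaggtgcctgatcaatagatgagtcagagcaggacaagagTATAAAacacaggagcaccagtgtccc
Ivl: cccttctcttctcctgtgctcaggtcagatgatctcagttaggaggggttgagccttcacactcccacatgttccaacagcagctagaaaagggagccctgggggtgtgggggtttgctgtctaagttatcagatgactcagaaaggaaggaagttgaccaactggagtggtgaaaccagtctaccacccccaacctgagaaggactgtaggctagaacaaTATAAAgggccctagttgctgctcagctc
The Robo2 and Atoh1 windows each held 14 CG pairs and no TATAAA. The Lor window held 1 CG pair and the Ivl window 0. TATAAA began 27 bases before the start of Lor and 29 bases before that of Ivl. Both skin genes thus had a start region poor in CG pairs, and both genes of gained bins one with many.

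Livers at CT18 held more LAD bins than livers at CT6 in every pairing of mice. CT6 replicate 1 had 4961 LAD bins and CT6 replicate 2 had 5744. CT18 replicate 1 had 6182 and CT18 replicate 2 had 6525. The groups did not overlap. The mean was 5352.5 ± 554 at CT6 and 6353.5 ± 243 at CT18 (SD, n = 2 each), a difference of 1001 bins. A two-sided exact permutation of the time labels over the 4 mice gave P = 0.333, the smallest that its 6 assignments allow, so this design cannot reach 0.05. LADs covered 495.2 and 573.6 Mb of the autosomes in the CT6 mice, and 617.9 and 651.6 Mb in the CT18 mice. The files hold no score or read count for a LAD, so the read depth is unknown and no counting interval could be had.

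The grid on which LADs were called moves with the time point. LAD starts of a library lie on multiples of a fixed number of kilobases, here called its bin step. It was 35 kb in CT6 replicate 1 and 11 kb in CT6 replicate 2, against 19 kb in CT18 replicate 1 and 6 kb in CT18 replicate 2. At each replicate number the CT18 library therefore had the finer grid, and at each time point replicate 2 did. The coarser library of a time point also had fewer and longer LADs. CT6 replicate 1 held 134 autosomal LADs with a median of 2.87 Mb and CT6 replicate 2 held 272 with a median of 1.35 Mb. CT18 replicate 1 held 159 with a median of 2.64 Mb and CT18 replicate 2 held 325 with a median of 1.27 Mb.

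**Figure D1:**
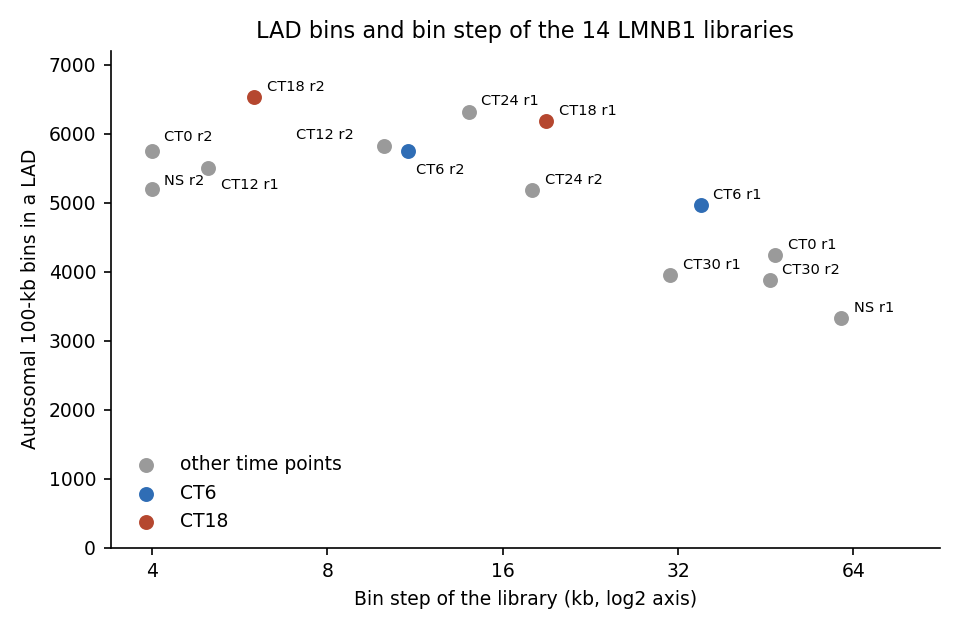
Number of autosomal 100-kb LAD bins (y axis) against the bin step of the library in kb (x axis, log2) for the 14 LMNB1 libraries, 1 point per mouse. Both CT18 mice, at 6182 and 6525 bins, lie above both CT6 mice, at 4961 and 5744, and the 4 libraries differ in bin step.

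In 1 of the 4 pairings the CT6 library had the finer grid. CT6 replicate 2, at 11 kb, had 1020 LAD bins that CT18 replicate 1, at 19 kb, did not, and lacked 1458 that it had, a surplus of 438 at CT18. In the other 3 pairings, where CT18 had the finer grid, the surplus was 781, 1221 and 1564 bins. CT18 had the surplus in all 4 pairings, and it was smallest where CT6 had the finer grid. Each pairing sets 1 mouse against 1 mouse, so grid and mouse cannot be told apart. When the LADs of all 4 mice were first placed on the coarsest grid, 35 kb, 394 bins were gained and 94 lost, and 386 of the gained and 89 of the lost were the bins chosen on the deposited grids. Placing calls on a common grid does not undo settings used when LADs were called, and the part of those settings in the result was not tested beyond these values.

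Most bins with any call did not separate the time points. Of 7961 bins in a LAD in at least 1 of the 4 mice, 3861 (48.5%) were LAD bins in all 4 and 486 (6.10%) were gained or lost. The 2 CT6 mice differed from each other at 2003 bins and the 2 CT18 mice at 2373. The calls by replicate number, which follow the bin step within a time point, also divided bins. Both replicate 2 libraries shared 449 LAD bins that neither replicate 1 library had, and both replicate 1 libraries shared 199 that neither replicate 2 library had. The Jaccard index, the shared over the joint LAD bins, was 0.685 between the CT6 mice and 0.685 between the CT18 mice. Between time points it ranged from 0.626 to 0.768. The highest value of all 6 pairs joined CT6 replicate 2 to CT18 replicate 2, the 2 finest grids, across time points.

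Gained bins made up 7.57% of the 5167 bins that were LAD bins in both CT18 mice, and lost bins 2.18% of the 4351 in both CT6 mice. Gained bins were 80.5% of the 486. Their calls were mostly clear of the threshold. Of the 391 gained bins, 281 had no base in a LAD in either CT6 mouse and were covered in full in both CT18 mice, and 14 came within 10 kb of the threshold in at least 1 mouse. A further 25 bins missed the definition of a gained bin by 10 kb or less. Of the 95 lost bins, 67 were fully clear, 10 lay within 10 kb of the threshold and 11 missed the definition by 10 kb or less.

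Gained and lost bins came in runs of neighbors. The 391 gained bins formed 99 runs with a median length of 300 kb, of which 30 were single bins and the longest spanned 1.9 Mb. The 95 lost bins formed 31 runs with a median of 200 kb, of which 14 were single bins and the longest spanned 1.7 Mb. Neighbors share a LAD and are not independent. The 6 longest runs held 88 of the gained bins (22.5%) but 54 of the lost bins (56.8%), so the lost bins rest on few places. Most bins lay in runs beside a LAD of the other time point. Among gained bins, 257 (65.7%) lay in 78 runs that touched, at 1 side, a LAD bin of a CT6 mouse, and 127 (32.5%) lay in 19 runs with no such contact. Among lost bins, 63 (66.3%) lay in 28 runs that touched a LAD bin of a CT18 mouse at 1 side, and 24 (25.3%) lay in 2 runs with none. The remaining 2 gained runs and 1 lost run filled a gap between LAD bins of the other time point.

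The longest gained run, chr16:73100001-75000000 on mm10, spanned 1.9 Mb and held the start of Robo2 alone. LADs covered 0% of it in CT6 replicate 1, 1.84% in CT6 replicate 2 and 100% in each CT18 mouse. In the libraries that did not choose it, coverage was 0% in both CT30 mice, in CT0 replicate 1 and in NS replicate 1. It was 14.8% in CT24 replicate 2 and 41.5% in NS replicate 2. Coverage was 59.5% and 98.4% in the CT12 mice, 72% in CT0 replicate 2 and 100% in CT24 replicate 1. The 2 mice of CT0 and those of CT24 thus fell far apart at this place.

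The 2 next gained runs were on chromosome 3, each 1.5 Mb long and neither in contact with a CT6 LAD bin. Run chr3:110300001-111800000 held no protein-coding start. It was at 0% in both CT6 mice and at 100% and 98.9% in the CT18 mice, and also at 100% and 98.7% in the NS mice. Run chr3:113700001-115200000 held Col11a1, a collagen of cartilage, and Olfm3, an olfactomedin of the nervous system. It was at 0% in both CT6 mice and at 99.8% and 99.2% in the CT18 mice. Among the other libraries it ranged from 0% in NS replicate 1, CT0 replicate 1 and CT30 replicate 1 to 100% in CT24 replicate 1.

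The remaining 3 of the 6 longest gained runs each touched a CT6 LAD bin at 1 side. Run chr6:25000001-26500000 held Gpr37, a receptor of the brain, and Pot1a, a protector of telomeres. It was at 0% in both CT6 mice and at 99.7% and 97.1% in the CT18 mice. Elsewhere it was at 98.4% in CT0 replicate 2, 95.3% in CT12 replicate 1, 68.9% in CT24 replicate 1 and at most 45.9% in the remaining libraries. Run chr8:63300001-64600000 held Sgo2b and the metalloprotease gene Tll1, and was at 0% and 2.08% in the CT6 mice and at 100% and 98.8% in the CT18 mice. In the CT30 mice, at the same clock hour as CT6, it was at 0% in both, but so it was in NS replicate 1 and CT0 replicate 1. NS replicate 2 was at 79.1%, CT0 replicate 2 at 72.6%, the CT12 mice at 94.6% and 95.4%, and both CT24 mice at 100%. Run chr6:64500001-65600000 held Atoh1, Smarcad1, Hpgds and Tnip3 and was at 0.455% and 0% in the CT6 mice and at 100% and 96.5% in the CT18 mice. Smarcad1 is a chromatin remodeler and Hpgds makes prostaglandin D. In the other libraries this run was at 100% in NS replicate 1, CT24 replicate 1 and CT30 replicate 1, and at most 41.3% in the other 7.

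Of the 99 gained runs, 7 with 27 bins in all were at 0% in each of the 10 other libraries, as was 1 lost run of a single bin. The longest of the 7, the 1-Mb run chr2:57400001-58400000 was at 0% in both CT6 mice and at 100% and 95.6% in the CT18 mice. It is the seventh longest of all gained runs and was singled out after its values had been seen. It held Galnt5, which starts mucin-type glycosylation, Ermn of myelin-forming cells, Cytip of immune cells and Acvr1c, a receptor of the activin family. The next, chr4:85000001-85800000, held Sh3gl2 and Adamtsl1 and was at 0% in both CT6 mice and at 100% and 90.8% in the CT18 mice. At the Galnt5 run on chromosome 2, in 11 of the 12 libraries other than those of CT18, a LAD to the left ended before reaching the run.

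**Figure D2:**
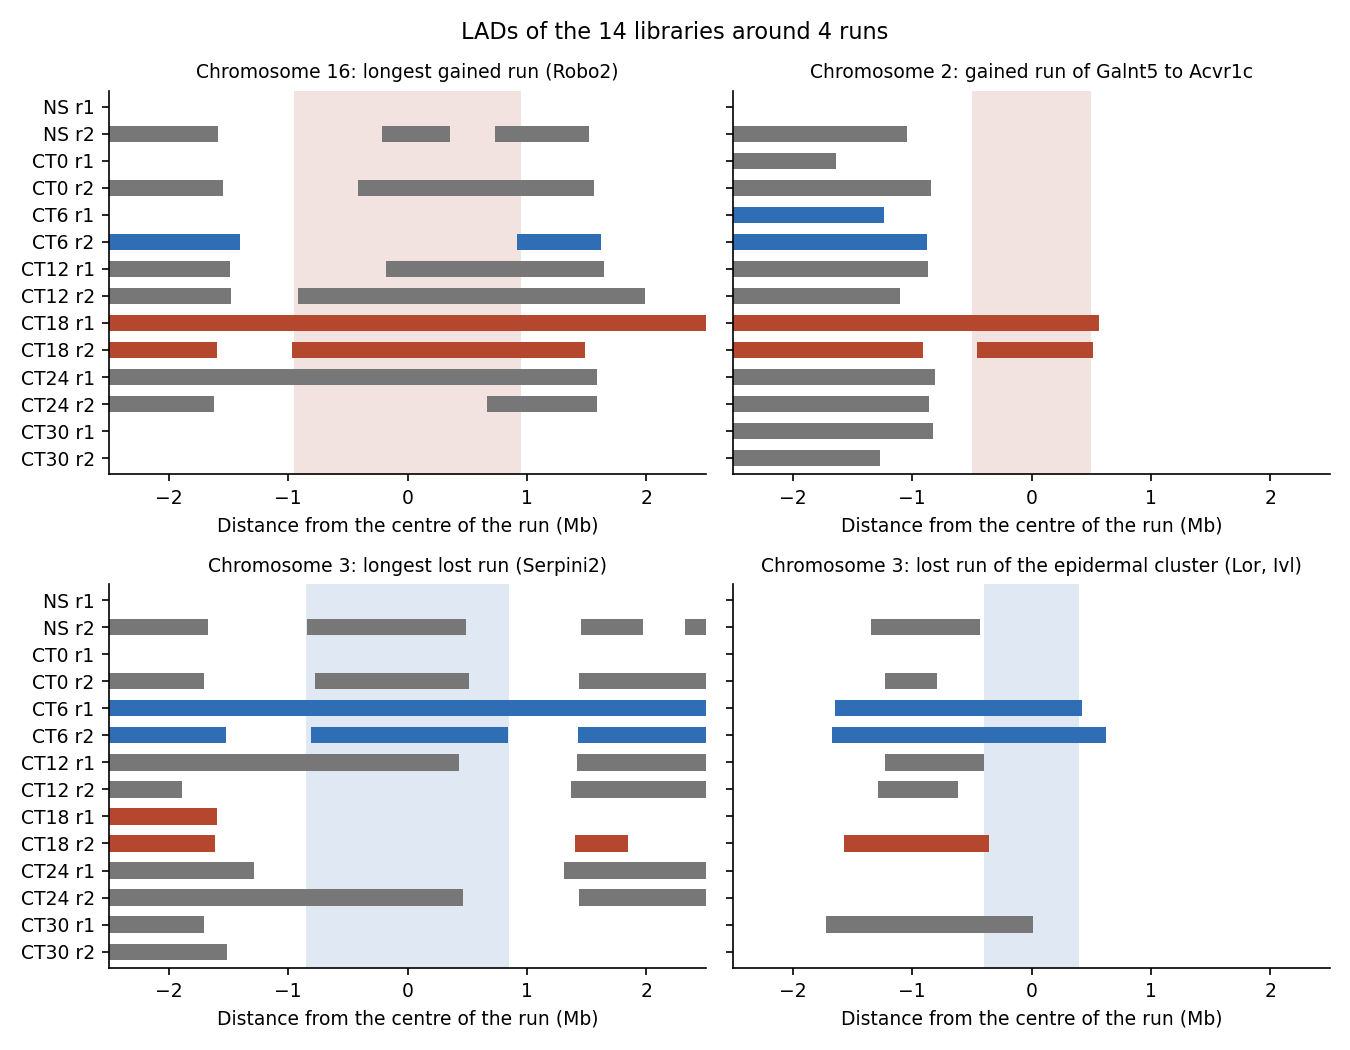
LADs (bars) of the 14 libraries within 2.5 Mb of the centre of 4 runs, with CT18 in red, CT6 in blue and other time points in grey, and the run shaded red where gained and blue where lost. The x axis is the distance from the centre in Mb; the Galnt5 run is covered in the CT18 mice alone, and the run of the epidermal cluster in both CT6 mice and in part in CT30 replicate 1.

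The lost bins were led by 3 runs on chromosome 3. The longest, chr3:73800001-75500000, held Zbbx, Serpini2 and Wdr49. Serpini2 is a serine protease inhibitor of the exocrine pancreas. LADs covered 100% and 97.1% of the run in the CT6 mice and 0% in both CT18 mice. Of the other libraries, NS replicate 2 was at 78.8%, CT0 replicate 2 at 76%, CT12 replicate 1 at 75.6% and CT24 replicate 2 at 77.3%. The other 6 libraries were at 0%, both CT30 mice among them. The bin with the Serpini2 start itself was a LAD bin in none of the 10. The second run, chr3:76500001-77500000, held no protein-coding start and was at 100% and 99.5% in the CT6 mice and at 0% in both CT18 mice. It was also at 100% in CT0 replicate 2, 76.5% and 82% at CT12, 85% and 97.2% at CT24 and 46.4% in NS replicate 2. In NS replicate 1, CT0 replicate 1 and both CT30 mice it was at 0%.

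The third lost run held a part of the epidermal differentiation complex, the cluster of genes that build the outer layer of the skin. Run chr3:92000001-92800000 had 37 of the 81 protein-coding starts in lost bins. It opens with Pglyrp3, Lor, Prr9, Lelp1, Sprr2a1 and Sprr2a2 and goes on to Ivl and the Lce1 genes. Sprr and Lce genes encode small proteins that are cross-linked into the cornified envelope. LADs covered 100% of the run in both CT6 mice, 0% in CT18 replicate 1 and 5.75% in CT18 replicate 2. Elsewhere it was at 51.4% in CT30 replicate 1, at 0.625% in CT12 replicate 1 and at 0% in the other 8 libraries. CT30 falls 24 h after CT6, and its 2 mice differed at this cluster.

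Run chr9:26600001-27400000 filled a gap between CT18 LAD bins and held 11 starts, among them B3gat1, Glb1l2, Glb1l3, Acad8, Thyn1 and Vps26b. Acad8 is a mitochondrial enzyme of valine breakdown and Vps26b a part of the retromer, which sorts endosomal cargo. It was at 100% in both CT6 mice and at 0% in both CT18 mice. It was also at 100% in CT0 replicate 1, CT24 replicate 1 and CT30 replicate 1, and at 0% in replicate 2 of each of those time points. Its GC content, 44.1%, was the highest of the 6. The last 2 of the 6, chr10:97800001-98500000 and chr16:52900001-53300000, held no protein-coding start. The first of these was at 100% and 88% in the CT6 mice and the second at 100% in both, and each was at 0% in both CT18 mice. Elsewhere the first was at 95.7% and 97.1% at CT12, 79.4% in NS replicate 2, 68% in CT0 replicate 2 and 0% in the remaining libraries. The second was at 95% and 32.5% at CT12, 88% and 72.5% at CT24, and at most 7% in the remaining libraries.

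Gained bins held 123 of the 20807 autosomal protein-coding starts (0.591%) and lost bins 81 (0.389%), while 85.6% of all starts lay in bins outside LADs in all 4 mice and 5.31% in bins that were LAD bins in all 4. At these shares a short list is likely to have no member in a gained or lost bin. Of 25 clock genes, 0 lay in a gained or lost bin and 24 lay in bins that were outside LADs in all 4 mice. All 99 cytochrome P450 genes and all 53 plasma protein genes listed started in bins outside LADs in all 4 mice, beside the 85.6% of all genes, as did the 21 listed genes of lamina and envelope proteins. Of 78 ribosomal protein genes, 76 did. Of 65 transferase genes of detoxification 1, Sult1c1, was in a gained bin, and of 60 serpins 1, Serpini2, was in a lost bin.

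The listed genes of neurotransmission and axon growth that lay in either kind of bin lay in gained bins. Over all genes, gained bins held 123 starts and lost bins 81. Genes outside the lists, such as Kirrel3 and Igsf9b, lay in lost bins. Of 42 GABA and glutamate receptor genes, 4 (9.52%) lay in gained bins, against 0.591% of all genes. Gabra4 and Gabrb1, which encode subunits of the GABA-A receptor and start side by side on chromosome 5, share 1 bin. Gabra5, a further subunit, lay on chromosome 7 and Grin3a, an NMDA receptor subunit, on chromosome 4. The 4 genes thus stand for 3 places. Another 11 of the 42 (26.2%) lay in bins that were LAD bins in all 4 mice, against 5.31% of all genes. Of 35 genes of cell adhesion and axon guidance, 2 (5.71%), Robo2 and Csmd1, lay in gained bins, and 19 (54.3%) in bins that were LAD bins in all 4, a share that is again 5.31% over all genes. Of 91 potassium channel genes 1 (1.10%), Kcnip4, and of 90 cadherin and protocadherin genes 1 (1.11%), Pcdh18, lay in gained bins, against 0.591% of all genes.

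The run with Gabra4 and Gabrb1, chr5:71600001-72000000, was at 11.3% and 0% in the CT6 mice and at 93% and 91% in the CT18 mice. The run with Gabra5, chr7:57500001-57800000, was at 0% and 2% in the CT6 mice and at 100% in both CT18 mice. Gabra5 lay in a LAD bin in 4 of the 10 other libraries, and Gabra4 and Gabrb1 in 7.

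The large sensory families had members in both kinds of bin. Over all genes, 0.591% lay in gained and 0.389% in lost bins, the shares to set beside the counts below. Of 1128 olfactory receptor genes, 12 (1.06%) lay in gained bins and 3 (0.266%) in lost ones, while 357 (31.6%, against 5.31% of all genes) lay in bins that were LAD bins in all 4 mice. Of the 12, 10 are neighbors, Olfr651 to Olfr661 on chromosome 7, and the other 2 are the 2 entries of Olfr290. Of 327 listed vomeronasal receptor genes, which detect pheromones, 4 (1.22%) were in gained bins and 7 (2.14%) in lost ones. In bins that were LAD bins in all 4 mice lay 142 (43.4%, against 5.31% of all genes). The 7 lie in the runs chr7:12500001-12700000 and chr7:23900001-24100000. V1rd19, which starts between Vmn1r181 and Vmn1r183 in a lost bin, was not on the list and is not counted. Of 415 zinc finger genes, 6 (1.45%) were in gained bins and 1, Zfp180, in a lost one. The 6 are Zfp788, Zfp141, Zfp977, Zfp976, Zfp975 and Zfp936, all on chromosome 7 in 2 runs. Run chr7:42400001-43300000, with the last 5 of them, was at 0% and 0.556% in the CT6 mice and at 98% and 96.9% in the CT18 mice. Of the other 10 libraries it was above 50% in CT24 replicate 1 alone, at 94%. Defensins and keratins, of which 64 and 110 were listed, had no member in a gained or lost bin, and 23 defensins (35.9%, against 5.31% of all genes) lay in bins that were LAD bins in all 4 mice.

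Further clusters lie outside the lists and were named after their places had been seen. A gained run on chromosome 5, chr5:87700001-88500000, held the casein genes Csn1s2a, Csn1s2b and Csn3 of milk and the tooth enamel genes Amtn, Ambn and Enam. It was at 0% in both CT6 mice and at 97.9% and 94% in the CT18 mice. Elsewhere it was at 80.5% in CT0 replicate 2, 73.1% in CT12 replicate 1, 95.8% in CT24 replicate 1 and 0% in the remaining libraries. A lost bin, chr6:129600001-129700000, held Klrk1, Klrc1, Klrc2 and Klrc3, receptors of natural killer cells. It was at 95% and 100% in the CT6 mice and at 0% in both CT18 mice. Among the other libraries it was at 100% in 4, at 55% in 1 and at 0% in 5.

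The printed start regions lie apart in CG content by more than the sets they come from. In windows from 250 bases before to 50 after the annotated start, the median number of CG pairs was 4 for the 123 genes of gained bins (middle 50% from 1.5 to 12) and 1 for the 81 of lost bins. Without the 37 genes of the epidermal run, at a median of 1, the other 44 genes of lost bins had a median of 3. It was 12 for all autosomal genes, 1.5 for genes in LAD bins of all 4 mice and 14 for genes outside LADs in all 4. For the 1681 genes of mixed bins, those with any other pattern of calls in the 4 mice, it was 2. The letters TATAAA, on either strand, were in 33 windows of gained bins (26.8%) and 32 of lost bins (39.5%), against 12.7% of all windows. Genes in LAD bins of all 4 mice had them in 30.4% of windows, genes of mixed bins in 22.8% and genes outside LADs in all 4 in 10.5%. A share above that of all windows is thus not particular to gained and lost bins. They were in 18 of the 37 windows of the epidermal run (48.6%) and in 14 of the other 44 windows of lost bins (31.8%). Genes of 1 cluster are copies of each other in part, so these windows are not independent.

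**Figure D3:**
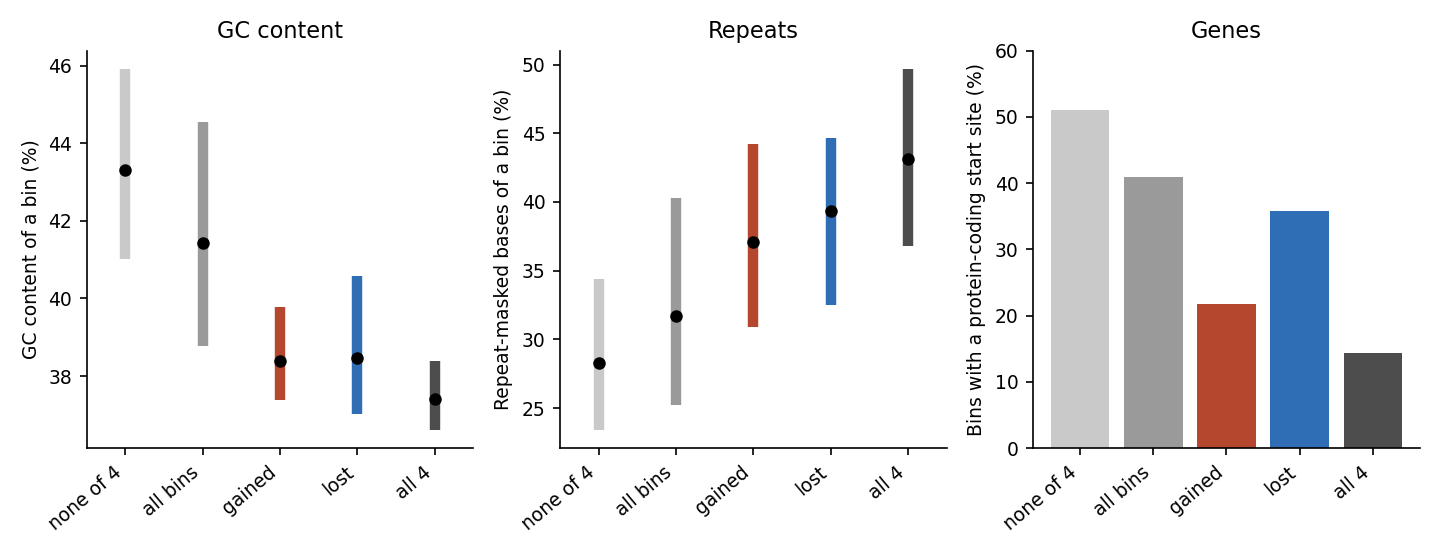
GC content (left) and repeat-masked bases (middle) per 100-kb bin in percent, with the median as a point and the middle 50% of bins as a bar, and the percent of bins with a protein-coding start (right). The y axes of the left and middle plots do not start at 0. Gained and lost bins lie between bins outside LADs in all 4 mice and bins in LADs in all 4 in each plot.

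Gained and lost bins were intermediate in sequence between the bins in LADs in all 4 mice and those in LADs in none. The median GC content was 38.4% in gained and 38.5% in lost bins, against 37.4% in bins that were LAD bins in all 4 mice, 43.3% in bins that were in none, and 41.4% in all. Repeat-masked bases made up a median of 37.1% of gained and 39.3% of lost bins, against 43.1% in all 4 and 28.3% in none. At least 1 protein-coding start lay in 85 gained bins (21.7%, 95% exact binomial interval 17.8 to 26.2) and in 34 lost bins (35.8%, 26.2 to 46.3). The share was 14.3% in bins of all 4, 51.1% in bins of none and 40.9% in all bins. The intervals treat bins as independent, which neighbors in a run are not. Per Mb, gained bins held 3.15 starts and lost bins 8.53, against 8.44 over all autosomes. The lost value includes the 37 starts of the epidermal run.

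Few gained or lost bins lay near chromosome ends. The first 10 Mb of the autosomes held 9 gained bins (2.30%) and 0 lost bins, against 7.71% of all bins. The last 10 Mb held 23 gained bins (5.88%) and 3 lost bins (3.16%), against 7.77% of all bins. Of the bins that were in LADs in all 4 mice, 4.90% lay in the first and 3.91% in the last 10 Mb. Of the 24639 autosomal bins, 23987 held 50 kb or more of known sequence, and all gained and lost bins were among these. The share of all bins near the ends may thus include bins where no LAD could be called. How many such bins lie there was not counted.

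Gained bins were spread over 18 of the 19 autosomes and lost bins over 13. Chromosome 7 had the most gained bins, 52, and chromosome 3 the most lost, 40. As a share of its bins, chromosome 16 had most gained, 3.76%, followed by chromosome 7 with 3.57%. Chromosome 3 held 42.1% of all lost bins and 10.5% of all gained bins, with 41 gained and 40 lost. Chromosome 9 had 0 gained and 11 lost bins. Chromosomes 5, 11, 13, 14, 15 and 18 had no lost bin, and chromosome 5 had 32 gained.

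**Figure D4:**
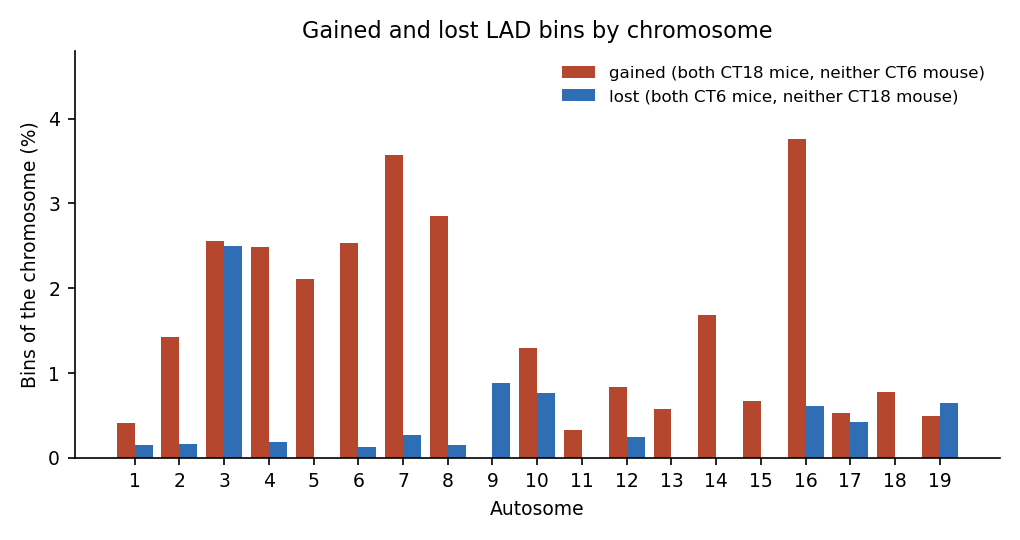
Percent of the 100-kb bins of each autosome (x axis) that were gained (red) or lost (blue) at CT18 against CT6. Chromosomes 16 and 7 reach 3.76% and 3.57% gained, and chromosome 3 has the highest share of lost bins, 40 in number.

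The 10 LMNB1 libraries that did not choose the bins show how often the same places were called at other times. Gained bins were LAD bins for 19.7% and 45.0% of their number in the NS mice and for 18.2% and 56.0% in the CT0 mice. The share was 50.9% and 50.1% at CT12, 79.0% and 43.2% at CT24, and 13.3% and 14.8% at CT30. Lost bins were LAD bins for 18.9% and 34.7% in the NS mice and for 29.5% and 49.5% at CT0. Their share was 47.4% and 38.9% at CT12, 52.6% and 45.3% at CT24, and 31.6% and 10.5% at CT30. In the same libraries, 62.9% to 97.4% of the bins that were LAD bins in all 4 mice and 0.270% to 1.88% of the bins in none were LAD bins. Gained and lost bins thus lay between these sets in every library.

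CT30, at the clock hour of CT6 a day later, had the lowest mean share of gained bins, 14.1% ± 1.09, and also the lowest of lost bins, 21.1% ± 14.9 (SD, n = 2). CT24 had the highest of both, 61.1% ± 25.3 and 48.9% ± 5.21. The difference between both shares, gained minus lost, was 0.746 and 10.3 percentage points in the NS mice, -11.3 and 6.54 at CT0, 3.53 and 11.2 at CT12, 26.4 and -2.04 at CT24, and -18.3 and 4.31 at CT30. The 2 mice of CT0, CT24 and CT30 had opposite signs. An exact permutation test of the F ratio, with the 945 ways to pair up the 10 libraries, gave F = 0.666, P = 0.672 for this difference. For the gained share alone the exact test gave F = 1.92, P = 0.289, and for the lost share F = 2.21, P = 0.218. Adjusted by Benjamini-Hochberg over these 3 exact tests the values were 0.672, 0.433 and 0.433. None of the 3 reached 0.05.

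The shares moved with the bin step of the library. Over the 10 libraries, the gained share fell with log2 of the bin step, with Pearson r = -0.712 (permutation P = 0.0228, adjusted 0.0342) and Spearman rho = -0.705 (permutation P = 0.0269, adjusted 0.0404). The lost share did the same, with r = -0.714 (permutation P = 0.0218, adjusted 0.0342) and rho = -0.711 (permutation P = 0.0249, adjusted 0.0404). The difference between both shares gave r = -0.465 (permutation P = 0.179, adjusted 0.179) and rho = -0.584 (permutation P = 0.0823, adjusted 0.0823). The tests were two-sided with 100000 resamples, and adjustment was by Benjamini-Hochberg over the 3 relations. Without NS replicate 2 and CT0 replicate 2, the libraries farthest from the median bin step, r was -0.749, -0.802 and -0.438. Both negative relations kept their sign in all 10 sets with 1 library left out, from -0.904 to -0.665 for gained and from -0.816 to -0.643 for lost bins. Their adjusted permutation P stayed below 0.05 without NS replicate 2 and without CT24 replicate 1, and reached up to 0.0830 without any 1 of the other 8 libraries. Each replicate number has 5 of these libraries, fewer than the 6 taken here as the least for a correlation, and r was not computed within it.

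**Figure D5:**
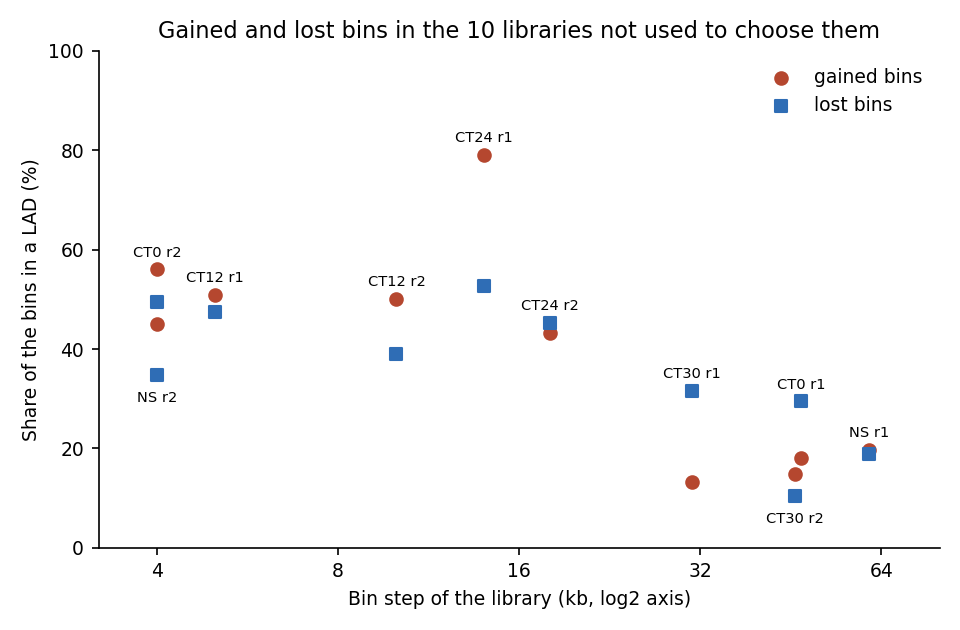
Percent of the 391 gained bins (red circles) and of the 95 lost bins (blue squares) that were LAD bins in each of the 10 libraries not used to choose them, against the bin step of the library in kb (log2 axis). Libraries with a bin step of 31 kb or more have at most 19.7% of the gained bins and at most 31.6% of the lost bins, and the others have at least 43.2% and 34.7%.

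Both shares also moved with the number of LAD bins of the library, which counts the same calls. On that axis r was 0.945 for gained and 0.880 for lost bins (adjusted permutation P = 3.6e-04 and 0.00114), and 0.691 for their difference (adjusted permutation P = 0.0230). Bin step and number of LAD bins go together in these libraries, since the coarse grids have few LAD bins, and their separate parts were not tested. NS replicate 2 (4 kb, 5195 LAD bins) and CT24 replicate 2 (18 kb, 5182 LAD bins) had gained shares of 45.0% and 43.2%. Their lost shares were 34.7% and 45.3%. CT24 replicate 1 (14 kb, 6318 LAD bins) had the highest of both shares, 79.0% and 52.6%. Counted by bin, gained bins were LAD bins in a median of 4 of the 10 libraries and so were lost bins. In at least 5 of the 10 lay 171 gained bins (43.7%) and 23 lost bins (24.2%), and in none lay 38 gained and 8 lost bins. The 38 gained bins that no other library called include the 10 bins of the Galnt5 run.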

How the data were processed

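Mouse liver LMNB1 ChIP-seq of 4 libraries (2 CT6 and 2 CT18 mice) was compared, and 10 further LMNB1 libraries were used to follow the chosen bins. The deposited values are the start and end coordinates of LADs on mm10, called by the authors in each mouse without pooling. Per the study's methods and the submitters' processing notes, reads were mapped with Bowtie2 2.25.0 after duplicates had been removed with Picard, ChIP and input were down-sampled to equal depth for each chromosome, and LADs were called with EDD, its gap penalty and bin size set for each library. A coarse bin can merge short LADs and miss short gaps, so bin settings can change the measurements. Read depth, EDD version and sequencing dates are not given in the sources used here. Groups and replicate numbers came from the sample titles, and no label ties a CT6 mouse to a CT18 mouse.

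Here LADs were counted in 100-kb bins with SciPy 1.17.1 and NumPy 2.4.6 under Python 3.11.15 (figures with matplotlib 3.10.9). A bin was a LAD bin at 50 kb or more covered. The bin step of a library is the greatest common divisor, in kb, of those LAD starts that fall on a whole kb. Genes were GENCODE vM21 protein-coding genes, placed by their start, and sequence came from GRCm38.p6. The method was tested on simulated LADs on the 4 grids. Bins and lists were chosen with earlier results of these data known. Named were the 6 longest gained and 6 longest lost runs with at most 6 genes each, without predicted symbols (29 in gained and 8 in lost bins), and members of 16 gene lists. Exceptions are marked. P values rest on spread between mice. Alternatives were 25 and 75 kb covered, bins of 50 and 200 kb, LADs of at least 500 kb, a common grid, closed gaps, the X chromosome, a replicate block, other x axes and each library left out. Inputs and RNA-seq were not used here.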

Additional observations from a re-analysis of the deposited data

How the results depend on the processing

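Between CT6 and CT18, gained bins, lost bins and the difference in LAD bins stayed within 1.5 times the reported values in the settings that could move them. These were both other coverage limits, both other bin sizes, the size filter and the common grid. Closing short gaps and leaving out short LADs changed none of the counts and so tested nothing. Adding the X chromosome could not change gained or lost bins, since CT6 replicate 1 and CT18 replicate 1 had 0 LAD bins there. With it the difference in LAD bins was 994.5. Gained bins ranged from 370 to 395 and lost bins from 94 to 103, in units of 100 kb. Leaving out a mouse weakens the definition itself, as 1 call then stands for a time point. Gained bins came to 594 without CT6 replicate 1, 1103 without CT6 replicate 2, 942 without CT18 replicate 1 and 1056 without CT18 replicate 2, and lost bins to 262, 254, 181 and 404, so the range was 594 to 1103 and 181 to 404. The difference in LAD bins was 609.5 to 1392.5. With the replicate block, the mean of 1221 and 781 bins was again 1001 (exact sign-flip P = 0.500, the smallest 2 pairs allow). The numbers pair no animals, and the replicate differences at CT6 and CT18 correlated at 0.225 over 4100 bins. For the 5 other time points, the block gave F = 0.589 (exact permutation P = 0.767).

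The negative relations of both shares to bin step kept their sign throughout but not always their side of 0.05. Without the 2 NS libraries r was -0.725 for gained and -0.770 for lost bins (adjusted permutation P = 0.0670 and 0.0653), and with bins at 75 kb it was -0.709 and -0.661 (both 0.0627). With 1 library left out, r was -0.904 to -0.665 and -0.816 to -0.643. The difference of both shares gave r = 0.691 with the number of LAD bins on the x axis (adjusted permutation P = 0.0230). The cause of these shifts was not tested. Unknown read depth and 2 mice per time point limit every comparison.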

Other observations

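The X chromosome, which stands outside the autosomal bins, was called unevenly. Of its 1711 bins, 0 were LAD bins in CT6 replicate 1 and in CT18 replicate 1, while CT6 replicate 2 had 95 and CT18 replicate 2 had 82, of which 63 were shared. CT0 replicate 1 and CT24 replicate 1 also had 0, and the other 8 libraries had 13 to 100. By the definition used for autosomes, 0 bins of the X chromosome were gained and 0 lost. With 0 LAD bins in CT6 replicate 1 and CT18 replicate 1, none could be.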
